A study of Mus musculus with 2 samples.

Results

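The genes described here were grouped as cell cycle regulators, and were followed in mouse thymic epithelial cells (TECs). They are the D-type cyclins Ccnd1, Ccnd2 and Ccnd3, the transcription factors Myc and Mycn, and the cyclin-dependent kinase (CDK) inhibitors Cdkn1b, Cdkn1c, Cdkn2a and Cdkn2c. They were chosen by symbol and make up 9 of the 32285 genes in the gene table. All 9 were found there, and each had at least 185 unique molecular identifiers (UMIs) over the cells kept.

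Single-cell RNA was measured in TECs taken 15 days after sublethal total body irradiation and in TECs from untreated mice. The cells were sorted from the thymus of female C57BL/6 mice as EpCAM+, CD45- and TER119-, and cells of 3 mice were pooled for each library. There was 1 library per condition, so no difference between the libraries has a replicate check and no p-value is given. The irradiated mice received 5.5 Gy at 7 weeks of age, and the sample labels give the mice as 9 weeks old at analysis, while a protocol in the labels gives 4 weeks.

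The libraries are called here by their size, because their labels conflict. The larger library had 5070 cells after filtering and the smaller 3233. By the labels of the deposit the larger library is the control and the smaller is the irradiated sample, whereas the names of the matrices and the study's own cell numbers point the other way. Each library ratio is therefore the larger over the smaller library. The total was 82201657 UMIs in 7167 barcodes for the larger library and 58185309 UMIs in 4937 barcodes for the smaller. The cells kept had between 2000 and 7500 detected genes and under 15% mitochondrial UMIs, and their median was 13004 UMIs in the larger and 13412 in the smaller library. The libraries shared 17 barcode sequences, 5 of them among cells kept.

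A D-type cyclin binds CDK4 or CDK6, and the complex phosphorylates the retinoblastoma protein, which frees E2F factors to switch on genes of DNA replication. Inhibitors of the INK4 family (the product of Cdkn2c, and p16Ink4a but not p19Arf of Cdkn2a) bind CDK4 and CDK6 themselves. Those of the CIP/KIP family (Cdkn1b and Cdkn1c, encoding p27 and p57) bind cyclin-CDK complexes more broadly. MYC drives growth and ribosome production and promotes entry into the cycle. In the thymic medulla, transit-amplifying epithelial cells (TA-mTECs) divide and give rise to Aire+ mTECs, which leave the cycle and later take on features of peripheral tissues such as skin, gut or tuft cells.

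Clustering without the 9 genes and the related pathway genes gave 13 clusters. Clusters 4 and 6 met the rule for TA-mTEC-like cells. The others that had 50 or more cells in both libraries were 0 and 2 (Ccl21a+ mTEC-like), 1 (Aire+ mTEC-like, led by S100a8 and S100a9), 3 (enterocyte or microfold-like), 7 (cTEC-like, cortical), 8 (tuft-like), 9 (keratinocyte-like) and 5, which took no name and was led by Prss23, Prelp and Serpinf1. The name of cluster 3 rests on leading genes such as Ccl9, Muc13 and Lypd8, and does not set it apart from Aire-expressing cells. Its Aire+ mTEC markers summed to 81.8 UMIs per 10000 against 83 in cluster 1, with Aire itself at 4.68 against 11. Its enterocyte or microfold markers summed to 70.7, against 67.9 in the keratinocyte-like cluster 9. Cluster 10 (37 and 110 cells) held thymocyte RNA together with cortical epithelial RNA, at 56.5 and 404 UMIs per 10000 for the respective marker lists, and it also took no name. Clusters 11 (neuroendocrine-like) and 12 (ciliated-like) had 42 and 21 cells.

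Clusters 4 and 6 differed in how far their cells were in the cycle. The 10 TA-mTEC markers summed to 38.1 UMIs per 10000 in cluster 6, 5.89 in cluster 4 and at most 0.982 in the other clusters of at least 50 cells per library. In the smaller clusters 10 and 12 they summed to 11.2 and 8.81, above cluster 4. Of cluster 10, 32.4% of the cells in the smaller library and 23.6% in the larger were called G2/M, and of cluster 12, 7 of 7 and 11 of 14 cells. Both are counted among the other cells below. Cluster 6 was called G2/M in 75.4% of its cells in the smaller library and 84.6% in the larger, with the rest in S. In G1 it had 0 of 187 and 0 of 481 cells, which at a limit of 3 counts allows shares of up to 1.6% and 0.624%. Cluster 4 was called G1 in 49.4% and 48%, and S in 43.9% and 46.7%. The 2 clusters together are called dividing below, although many cells of cluster 4 were called G1. Cluster 4 also expressed Aire, at 8.64 UMIs per 10000 against 11 in cluster 1. Median UMIs per cell were 19923 in cluster 4 and 25084 in cluster 6, against 9627 to 16912 in the others of that size. Levels below are therefore UMIs of a gene per 10000 UMIs of all genes in the same cells. Orders of clusters are given among clusters 0 to 10, and the small clusters 11 and 12 are left out of them. Limits in parentheses after a level are exact Poisson 95% limits, which cover counting error only. The UMIs came from transcript 3′ ends and are not scaled by transcript length.

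**Figure D1:**
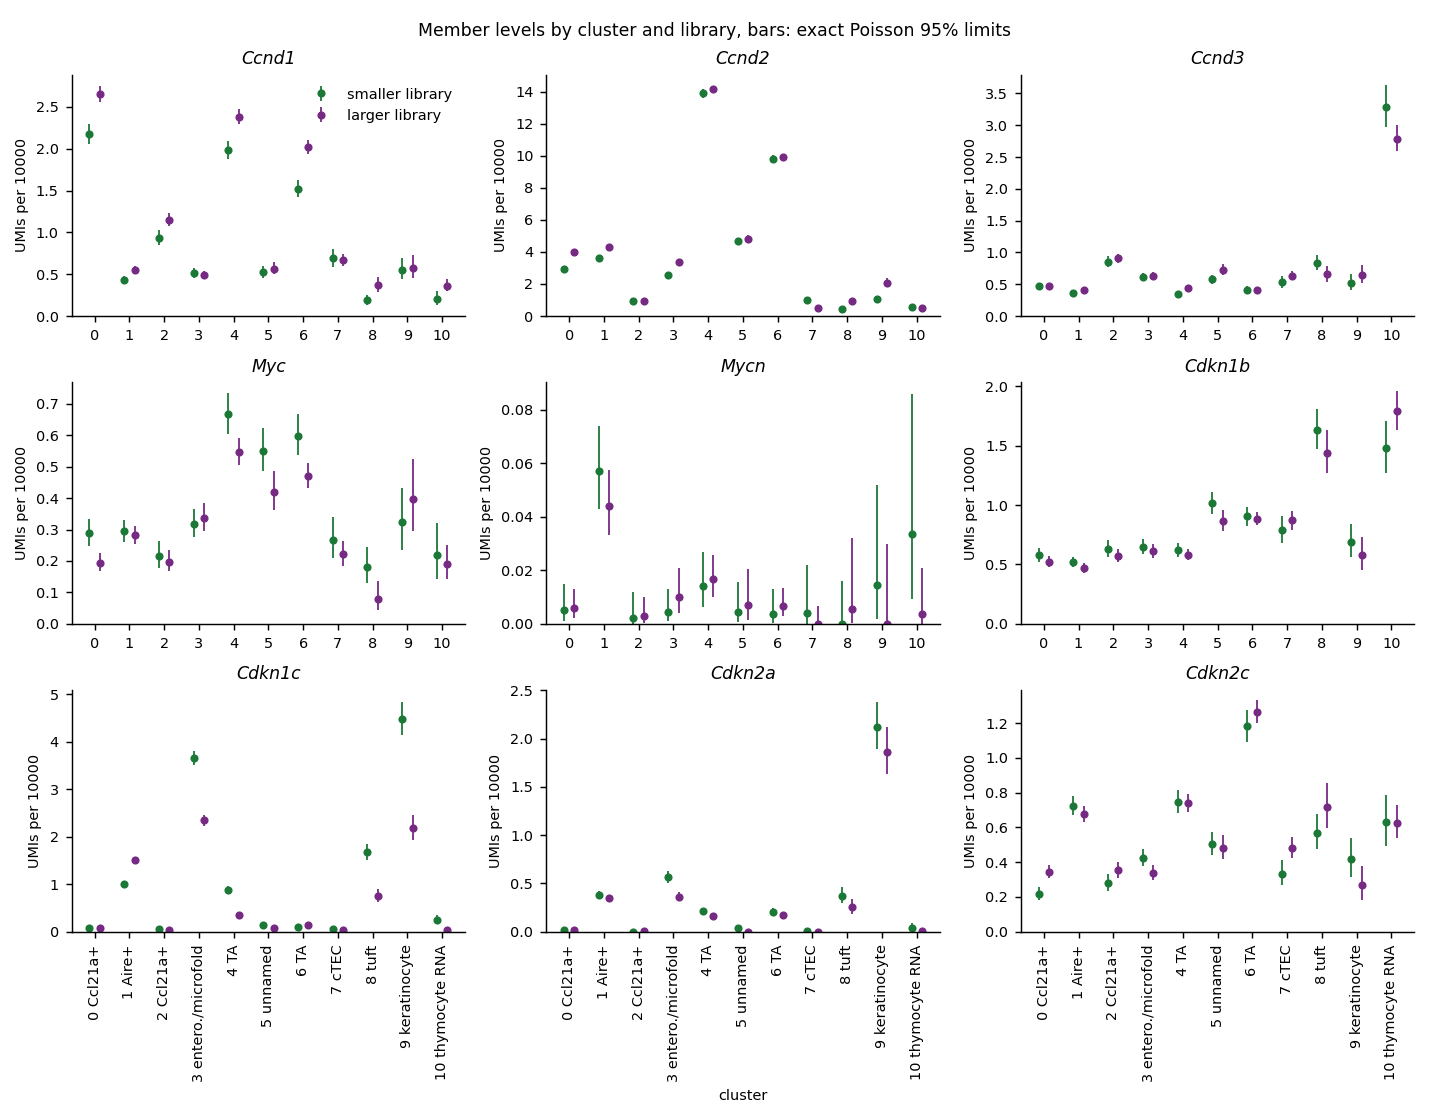
UMIs per 10000 (vertical axis, from 0, a separate scale for each gene) of the 9 genes in clusters 0 to 10 (horizontal axis) in the smaller (green) and larger (purple) library, with exact Poisson 95% limits as bars. Ccnd2 stands highest in clusters 4 and 6, Ccnd3 in cluster 10, Cdkn1b in clusters 8 and 10, Cdkn1c in clusters 3 and 9, and Cdkn2a in cluster 9.

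Ccnd2 was the most abundant of the 9 genes, with 67782 UMIs, at rank 214 of all genes. Its level in cluster 4 was 13.9 (13.6 to 14.2) in the smaller library and 14.1 (13.9 to 14.4) in the larger, and in cluster 6 it was 9.77 (9.52 to 10) in the smaller library and 9.91 (9.73 to 10.1) in the larger. Cluster 5 came next at 4.68 and 4.82, followed by the Aire+ mTEC-like cluster 1 at 3.63 and 4.29 and cluster 0 at 2.92 and 4.01. The lowest levels stood in the tuft-like cluster 8 (0.425 and 0.919), the Ccl21a+ mTEC-like cluster 2 (0.932 and 0.944), the cTEC-like cluster 7 (0.974 and 0.53) and cluster 10 (0.562 and 0.505). In each library the limits of clusters 4, 6, 5, 1 and 0 were apart from one another, in that order. After each cell was thinned to 4000 UMIs, 91.1% (87 to 94.2) and 91.5% (89 to 93.6) of the cells of cluster 4 had a Ccnd2 UMI in the smaller and larger library (exact binomial 95% limits). The share was 10.5% (6.14 to 16.5) and 8.84% (4.79 to 14.6) in cluster 8, a cell type with fewer D-cyclin UMIs, where the median cell had 11785 UMIs before thinning against 19923 in cluster 4.

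Ccnd1 had a different pattern. It was highest in the Ccl21a+ mTEC-like cluster 0, at 2.18 (2.06 to 2.3) in the smaller library and 2.65 (2.55 to 2.76) in the larger. Cluster 4 (1.98 and 2.38) and cluster 6 (1.52 and 2.02) followed. The other Ccl21a+ mTEC-like cluster, 2, had less than these, 0.932 and 1.15, and the remaining clusters lay between 0.188 (cluster 8, smaller library) and 0.69 (cluster 7, smaller library). The limits of clusters 0 and 4 overlapped in the smaller library and were apart in the larger, where cluster 0 was higher. Cluster 0 had 0.845 UMIs per 10000 of TA-mTEC markers.

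Ccnd3 varied least of the 9 genes, by 2.28-fold between the highest and the lowest of clusters 0 to 9. Its levels there lay between 0.343 (cluster 4, smaller library) and 0.906 (cluster 2, larger library). Cluster 10 stood apart at 3.29 (2.97 to 3.63) in the smaller library and 2.79 (2.59 to 3) in the larger. In that cluster all 16 thymocyte markers had UMIs, and their sum was 58.1 and 55.8 per 10000, against 0.524 and 0.451 in the cTEC-like cluster 7. The part of thymocyte RNA in the Ccnd3 level of cluster 10 was not tested.

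The clusters therefore differed in which D-type cyclin supplied most of the D-cyclin UMIs. Ccnd2 made up 85.6% and 83.4% of them in cluster 4 and 83.4% and 80.3% in cluster 6. It made up 82% and 81.7% in cluster 1. In cluster 2 the Ccnd1, Ccnd2 and Ccnd3 shares were 34.3%, 34.3% and 31.4% in the smaller library and 38.4%, 31.4% and 30.2% in the larger. Ccnd3 held 81.2% and 76.3% in cluster 10. In the tuft-like cluster Ccnd3 held 57.7% in the smaller and 33.7% in the larger library, where 1 cell held 72 of the 160 Ccnd2 UMIs.

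Myc was low everywhere and highest in cluster 4, at 0.667 (0.605 to 0.733) in the smaller library and 0.547 (0.505 to 0.592) in the larger. Cluster 6 (0.599 and 0.469) and the unnamed cluster 5 (0.551 and 0.421) followed, and neighbours in this order overlapped in each library. The lowest level was in the tuft-like cluster, 0.18 and 0.0804, with 41 and 14 UMIs.

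Mycn was close to the detection limit, with 185 UMIs in all cells kept. Of these, 56 and 55 stood in the Aire+ mTEC-like cluster 1, whose level was 0.057 (0.0431 to 0.0741) in the smaller library and 0.0442 (0.0333 to 0.0575) in the larger. The TA-mTEC-like clusters had 0.0141 and 0.0166 (cluster 4) and 0.00361 and 0.00675 (cluster 6). No cluster other than 1 held over 19 Mycn UMIs in a library.

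The Mycn promoter is shown because it was the only window found with a group of E2F letters. The gene was not called between dividing and other cells in the comparison below. Its 11 and 27 UMIs in the dividing clusters of the smaller and larger library leave that ratio too wide to give a direction. The window covers 250 bases before and 50 bases after the gene's RefSeq start (GRCm38.p6, chr12:12941787-12942086, minus strand, given 5′ to 3′). This start differs from the GENCODE start of Mycn, 12941914. Capitals mark TTTNGCGC, searched on both strands, where N is any base, and overlapping matches were kept. It held 3 matches, 2 of them overlapping on opposite strands.

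Mycn: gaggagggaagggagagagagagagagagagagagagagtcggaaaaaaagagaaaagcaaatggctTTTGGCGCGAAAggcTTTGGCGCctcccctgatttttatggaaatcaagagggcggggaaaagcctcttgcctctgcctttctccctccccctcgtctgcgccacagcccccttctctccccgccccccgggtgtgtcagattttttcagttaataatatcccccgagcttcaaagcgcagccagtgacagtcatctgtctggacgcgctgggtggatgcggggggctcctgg

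The same letters stood in 1.38% of the 32851 promoter windows of that length in the table. Windows were found for 5 of the 9 genes, and Ccnd1, Ccnd2, Myc and Cdkn1c had none. The windows of Ccnd3, Cdkn1b and Cdkn2c held no TTTNGCGC. The E-box CACGTG, searched likewise, stood in 1 Cdkn2c window and in 7.15% of all windows. A match describes the letters only.

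Cdkn1b, which encodes p27, was found in all clusters, with 3.16-fold between the highest and the lowest cluster of at least 50 cells per library. The tuft-like cluster was the highest of these, at 1.64 (1.47 to 1.81) in the smaller library and 1.44 (1.27 to 1.63) in the larger, and cluster 10 had a like level of 1.48 and 1.79. Clusters 5 (1.02 and 0.867), 6 (0.904 and 0.882) and 7 (0.788 and 0.87) followed. Their limits overlapped in the larger library, and in the smaller cluster 5 lay above cluster 7. The Aire+ mTEC-like cluster was the lowest, at 0.519 and 0.469.

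Cdkn1c encodes p57 and is an imprinted gene. Its level was 4.48 (4.13 to 4.85) in the smaller library and 2.18 (1.93 to 2.46) in the larger in the keratinocyte-like cluster 9. In the enterocyte or microfold-like cluster 3 it was 3.67 (3.52 to 3.81) in the smaller library and 2.35 (2.24 to 2.47) in the larger. The limits of the pair were apart in the smaller library, with cluster 9 higher, and overlapped in the larger. In the smaller library 1 cell held 185 of the 622 Cdkn1c UMIs of cluster 9 and 1 held 302 of the 2461 of cluster 3. The limits do not include that spread, so no order of the pair is read from them. The tuft-like cluster had 1.68 and 0.752 and the Aire+ mTEC-like cluster 1 and 1.51. In the Ccl21a+ mTEC-like, cTEC-like and unnamed clusters 0, 2, 5 and 7 it did not exceed 0.135. Cluster 4 held 0.885 and 0.35 and cluster 6 0.108 and 0.15.

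Cdkn2a was high in 1 cluster. The keratinocyte-like cluster had 2.12 (1.89 to 2.38) in the smaller library and 1.87 (1.63 to 2.12) in the larger, and 46.9% (36.6 to 57.3) and 37.2% (27.5 to 47.8) of its thinned cells had a UMI. Clusters 3 (0.565 and 0.361), 1 (0.385 and 0.346) and 8 (0.373 and 0.253) followed, with clusters 3 and 1 apart in the smaller library alone. The TA-mTEC-like clusters had 0.21 and 0.166 (cluster 4) and 0.2 and 0.178 (cluster 6). In clusters 0, 2 and 7 together the gene had 29 UMIs over both libraries, and the share of thinned cells with a UMI in cluster 2 was 0.234% (0.00593 to 1.3) and 0.14% (0.00355 to 0.778).

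Cdkn2a produces p16Ink4a and p19Arf from separate first exons, and these data cannot tell them apart. Its UMIs are therefore not a measure of the CDK inhibitor p16Ink4a alone. Its annotated transcripts (GENCODE vM21, GRCm38, chr4:89274471-89294653, minus strand) start at 89282192 and 89294653 and end in an overlapping last exon, from 89274541 to 89274774, at the end from which UMIs were counted. The windows at the RefSeq start sites (GRCm38.p6, minus strand, 5′ to 3′) are chr4:89282143-89282442 and chr4:89294570-89294869. The RefSeq start of the latter window differs from the GENCODE start at 89294653. Capitals mark TTTNGCGC on either strand.

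Cdkn2a, start at 89282192: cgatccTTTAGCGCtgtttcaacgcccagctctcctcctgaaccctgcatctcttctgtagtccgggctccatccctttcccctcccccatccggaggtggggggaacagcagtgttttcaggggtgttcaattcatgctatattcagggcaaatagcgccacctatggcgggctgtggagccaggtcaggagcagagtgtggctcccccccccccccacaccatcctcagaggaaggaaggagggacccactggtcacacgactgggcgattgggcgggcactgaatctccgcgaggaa
Cdkn2a, farther start: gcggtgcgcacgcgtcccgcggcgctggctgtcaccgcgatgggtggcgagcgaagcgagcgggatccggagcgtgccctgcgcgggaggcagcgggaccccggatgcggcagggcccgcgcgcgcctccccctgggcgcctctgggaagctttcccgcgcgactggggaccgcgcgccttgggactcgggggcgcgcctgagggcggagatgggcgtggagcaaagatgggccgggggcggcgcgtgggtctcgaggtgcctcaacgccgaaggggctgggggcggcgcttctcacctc

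The former held 1 match and the latter none. The G and C content was 60.3% in the former and 77% in the latter. No measurement here assigns the Cdkn2a UMIs to either start.

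Cdkn2c, which encodes p18Ink4c, behaved unlike the other inhibitors. It was highest in cluster 6, at 1.18 (1.09 to 1.28) in the smaller library and 1.27 (1.2 to 1.33) in the larger. Clusters 4 (0.747 and 0.74) and 1 (0.724 and 0.679) overlapped and came next in the smaller library. In the larger the tuft-like cluster 8, at 0.718 (0.598 to 0.855), lay between these and overlapped both. It had 0.57 in the smaller library. The lowest level was that of cluster 0 in the smaller library (0.219) and of cluster 9 in the larger (0.268).

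The first comparison asked which of the genes differ between dividing and other cells. Cells of clusters 4 and 6 were set against all other clusters in each library. A gene was called where the ratio was at least 1.5-fold in both libraries, in the same direction, and where the range of the ratio from the opposite ends of both Poisson limits left out no change. Ratios are given as log2 (dividing over other) with that range.

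Of the 9 genes, 4 were called higher and 2 lower, against 8.76% higher and 35.2% lower of the 16472 genes with at least 50 UMIs in each library. Over all those genes the median log2 ratio was -0.40 in the smaller library and -0.38 in the larger, so a gene at 0 stood above the median gene. The median of the 9 was 0.02 and 0.09.

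The genes called higher were Ccnd2, Ccnd1, Myc and Cdkn2c. Ccnd2 had 12 (11.8 to 12.2) UMIs per 10000 in dividing and 2.59 (2.54 to 2.64) in other cells of the smaller library, and 12 (11.8 to 12.1) and 2.93 (2.88 to 2.98) in the larger. Its log2 ratio was 2.21 (2.16 to 2.26) in the smaller library and 2.03 (1.99 to 2.07) in the larger, the largest of the 9 in either library. The ratio of Ccnd1 was 1.19 (1.08 to 1.30) in the smaller library and 1.10 (1.03 to 1.18) in the larger. For Myc it was 1.06 (0.87 to 1.24) in the smaller library and 0.99 (0.83 to 1.15) in the larger. For Cdkn2c, the only inhibitor among them, it was 1.02 (0.87 to 1.17) in the smaller library and 1.08 (0.96 to 1.19) in the larger. The calls of Ccnd1 and Myc were lost under some settings of the clustering. With the libraries merged without integration the Ccnd1 ratio was 0.30 and 0.20 and the Myc ratio 0.58 and 0.65, and neither was called, while Ccnd2 and Cdkn2c were.

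Cdkn1c and Ccnd3 were called lower. Cdkn1c had 0.524 (0.484 to 0.567) UMIs per 10000 in dividing against 1.17 (1.14 to 1.21) in other cells of the smaller library, and 0.248 (0.229 to 0.27) against 0.785 (0.761 to 0.809) in the larger. Its log2 ratio was -1.16 (-1.32 to -1.01) in the smaller library and -1.66 (-1.82 to -1.5) in the larger, and with the libraries merged without integration it was -1.35 and -0.37 and not called. The ratio of Ccnd3 was -0.77 (-0.96 to -0.58) in the smaller library and -0.73 (-0.86 to -0.59) in the larger. Without cluster 10 among the other cells the Ccnd3 ratio was -0.57 and -0.47, and the gene was no longer called. The thymocyte markers summed to 2.52 and 3.53 UMIs per 10000 in the other cells and to 0.304 and 0.267 in the dividing ones. Without cells of 2 or more thymocyte UMIs the Ccnd3 ratio was -0.55 and -0.52.

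Cdkn1b, Cdkn2a and Mycn were not called. The Cdkn1b ratio of 0.02 (-0.13 to 0.17) in the smaller library and 0.09 (-0.03 to 0.20) in the larger lay close to no change. Cdkn2a had -0.54 (-0.81 to -0.27) in the smaller library and -0.14 (-0.38 to 0.09) in the larger. Mycn had -0.98 (-2.31 to 0.22) in the smaller library and -0.31 (-1.24 to 0.58) in the larger, a range that its few UMIs leave wide.

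**Figure D2:**
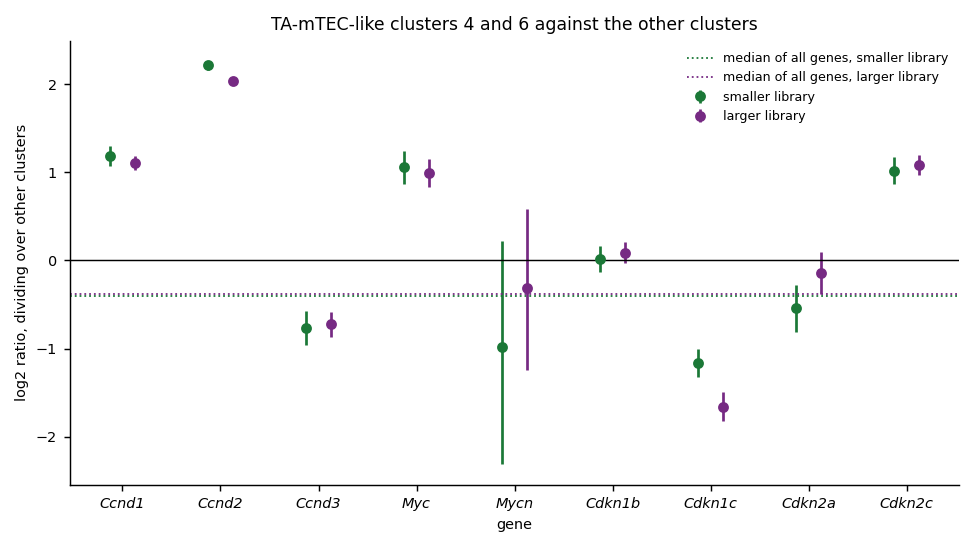
Log2 ratio of UMIs per 10000 (vertical axis) in TA-mTEC-like clusters 4 and 6 over all other clusters for the 9 genes (horizontal axis) in the smaller (green) and larger (purple) library, with bars for the range from opposite Poisson limits and dotted lines for the median of all genes tested. Ccnd2, Ccnd1, Myc and Cdkn2c lie above 0 and Ccnd3 and Cdkn1c below the dotted lines in both libraries.

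The dividing group held cells with few transcripts of cycle genes, 140 and 285 of them with under 10 UMIs of 97 S and G2/M genes per 4000. With cells of at least 20 such UMIs alone 4 genes were again called higher, Ccnd2 by 2.09 and 1.93 and Cdkn2c by 1.19 and 1.28. The Cdkn1c ratio then was -2.83 and -2.60. With cluster 4 alone as the dividing group it was -0.41 and -1.16, and with cluster 6 alone -3.44 and -2.38.

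Phase calls in the dividing clusters ordered the genes further. Phases were called on cells thinned to 4000 UMIs each, with the S and G2/M gene lists of Seurat, none of which is among the 9 genes. G1 was also the call of 92.9% and 88.7% of the cTEC-like cells of cluster 7 in the smaller and larger library. In the tuft-like cluster 8 it was 88.2% and 86.4%. A G1 call therefore does not set cells in G1 apart from cells that have left the cycle. Cluster membership moved with these calls, since all G1 cells stood in cluster 4 and most G2/M cells in cluster 6, and the part of free RNA in them was not tested.

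Among the D-type cyclins, Ccnd1 was highest in cells called S. Its level in G1, S and G2/M was 1.2 (1.08 to 1.33), 2.77 (2.62 to 2.94) and 1.24 (1.14 to 1.34) in the smaller library. It was 1.68 (1.57 to 1.79), 3.12 (3 to 3.25) and 1.82 (1.74 to 1.9) in the larger. The limits of S did not overlap those of the other phases in either library. S was also the highest phase inside each cluster, with 3 and 3.25 in S of cluster 4 against 1.2 and 1.68 in G1. In cluster 6, which had no G1 cells, it was 2.29 and 2.71 in S against 1.28 and 1.9 in G2/M. The few G2/M cells of cluster 4 had less Ccnd1 than its G1 cells, 0.808 and 0.652 from 36 and 43 UMIs, with limits apart from those of G1 in the larger library alone.

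Ccnd2 was highest in S by a smaller margin, from 12.7 in G1 to 14.4 in S and 9.28 in G2/M of the smaller library, and from 13.1 to 14.3 and 9.88 in the larger. Ccnd3 was highest in S too, at 0.49 (0.425 to 0.561) and 0.529 (0.478 to 0.584). Its limits overlapped those of G2/M in neither library, and those of G1 in neither. Inside cluster 4 of the smaller library it had 0.416 in S and 0.404 in G2/M, with overlapping limits, and S stood apart from G1 (0.265). Inside cluster 4 of the larger library the limits of S, 0.498 (0.441 to 0.56), and G1, 0.39 (0.338 to 0.447), overlapped. Phases scored without thinning gave Ccnd2 a smaller step, with 12.9 in G1 and 13.5 in S of the smaller library and overlapping limits.

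The inhibitors had their highest levels in different phases. Cdkn1b had 0.618, 0.563 and 1.01 (0.918 to 1.1) in G1, S and G2/M of the smaller library and 0.582, 0.591 and 0.909 (0.852 to 0.967) in the larger. Cdkn2c likewise had its highest level in G2/M, 1.18 (1.09 to 1.29) and 1.26 (1.2 to 1.33), against 0.734 and 0.812 in S. The log2 ratio of G2/M over S was 0.84 (0.52 to 1.16) and 0.62 (0.39 to 0.85) for Cdkn1b and 0.69 (0.41 to 0.98) and 0.64 (0.44 to 0.83) for Cdkn2c. These orders did not hold in each cluster. In cluster 6, Cdkn1b had 0.567 and 0.59 in S against 1.01 and 0.934 in G2/M, with limits apart in both libraries, while in cluster 4 its G2/M level was 0.987 in the smaller library and 0.516 in the larger, where it overlapped G1 (0.582) and S (0.592). In cluster 6, Cdkn2c had 1.03 and 1.11 in S against 1.23 and 1.29 in G2/M, with overlapping limits. In cluster 4 its G2/M level, 0.74 and 0.773 from 33 and 51 UMIs, overlapped that of G1 (0.887 and 0.764) and of S (0.6 and 0.714), so its G2/M peak over both clusters was not seen apart inside either.

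Cdkn1c was highest in cells called G1, which may include cells that have left the cycle. It had 1.5 (1.37 to 1.65) and 0.498 (0.44 to 0.563) there, against 0.307 and 0.292 in S, and 0.0793 and 0.0962 in G2/M. Few cells carried these sums, and the Poisson limits do not include that spread. In the larger library 1 cell held 98 of the 401 Cdkn1c UMIs of cluster 4, and 1 held 63 of the 178 of cluster 6. The order of S and G2/M depended on the phase scoring. Scored without thinning, the larger library had 0.627 in G1, 0.0643 in S and 0.163 in G2/M, so that G1 stayed highest and S fell below G2/M, and the log2 ratio of S over G1 was -3.29 in place of -0.77. The phase calls of single cells were not compared between the scorings. Cdkn2a was lowest in S, at 0.133 and 0.12 against 0.231 and 0.197 in G2/M, and inside cluster 6 of the larger library its limits in S and G2/M overlapped. Myc stayed between 0.467 and 0.694 over both libraries. Its phases overlapped in the smaller library, and in the larger the limits of S lay above those of G2/M. Inside cluster 4 Myc was higher in S (0.794 and 0.638) than in G1 (0.566 and 0.487), with limits apart in both libraries, and inside cluster 6 S (0.476 and 0.407) and G2/M (0.637 and 0.481) overlapped.

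**Figure D3:**
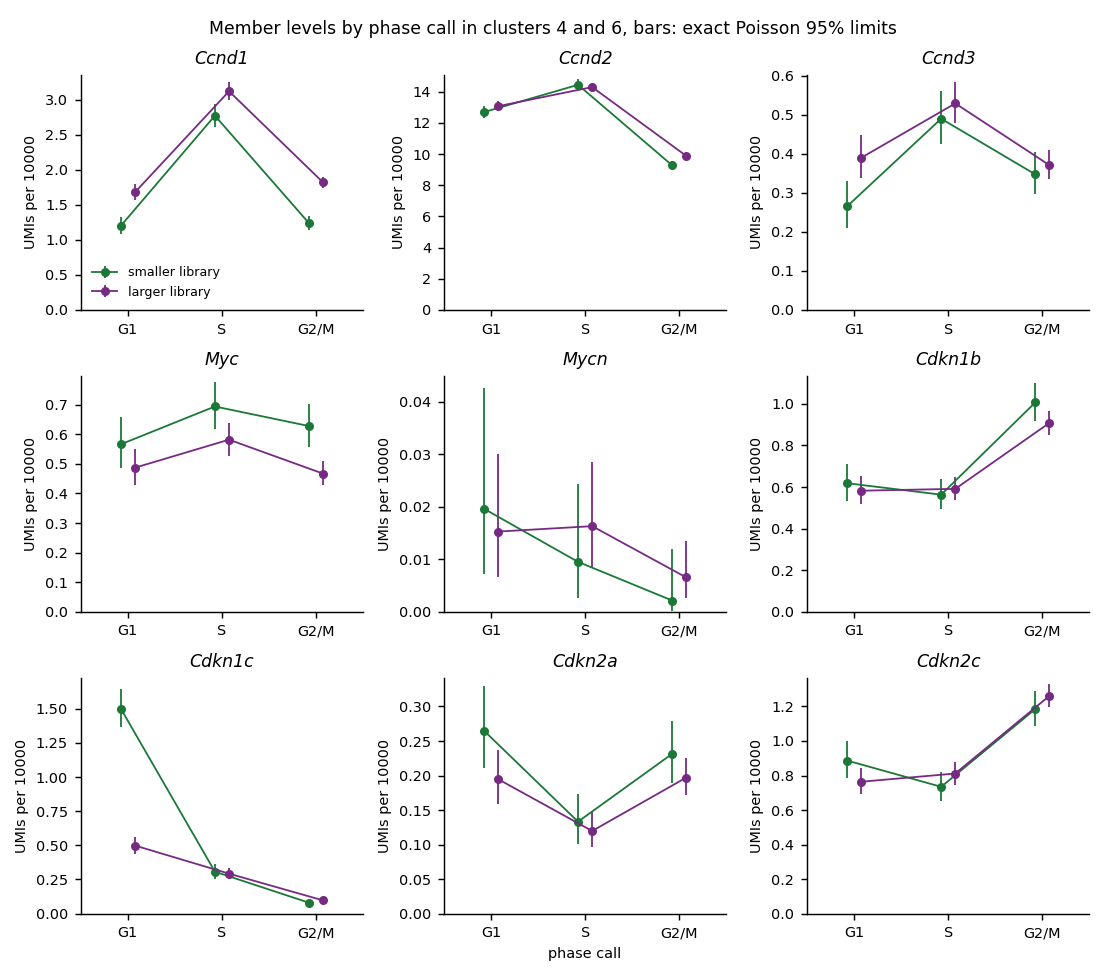
UMIs per 10000 (vertical axis, from 0) of the 9 genes in cells of clusters 4 and 6 called G1, S or G2/M (horizontal axis), in the smaller (green) and larger (purple) library, with exact Poisson 95% limits. Ccnd1 is highest in S, Cdkn1b and Cdkn2c in G2/M, and Cdkn1c in G1, in both libraries.

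The summed UMIs of the same 97 cycle genes gave a measure with no phase call. Within the dividing clusters, Cdkn2c was 0.848 and 0.688 in cells with under 10 such UMIs and 1.66 and 2.12 in cells with 80 or more. Cdkn1b was 0.578 and 0.541 against 1.7 and 1.25. Ccnd2 had 13.7 and 13.6 at the low end and 7.85 and 8.5 at the high end. Cdkn1c had 1.21 and 0.618 at the low end and 0.121 and 0.0557 at the high end. Not all levels changed steadily between the ends. With 20 to 39 such UMIs Cdkn2c was 0.539 and 0.628, below both ends, and Ccnd2 was 14.4 and 13.3. The range of 80 or more held 22 cells in the smaller and 68 in the larger library. Outside the dividing clusters, the 5 and 14 cells in that range had Ccnd3 at 9.52 and 11.1 and Ccnd2 at 0.0661 and 0.115, the reverse of the D-cyclin order in the dividing epithelial clusters. These other cells include cluster 10 with its thymocyte RNA. The 5 cells held 144 Ccnd3 UMIs. In the smaller library the highest Ccnd3 count in a cell was 59 in cluster 10 and at most 18 in any other cluster. The clusters of these cells were not counted, and the part of thymocyte RNA was not tested.

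Lists of related genes were set beside the 9 in the same comparison of dividing with other cells. Of 20 genes of the G1 machinery, 12 were called higher and 3 lower, with a median log2 ratio of 1.03 and 1.06, where 8.76% of all genes were called higher and 35.2% lower. The highest were E2f1, an activating E2F (3.86 and 3.29), and Ccne1, the cyclin that acts with CDK2 at the G1/S border (3.03 and 2.57). The lowest were Tfdp2, an E2F partner (-1.04 and -1.17), and Fbxw7, part of a ubiquitin ligase that degrades cyclin E and MYC (-0.85 and -0.68).

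Of 20 genes that MYC is known to regulate, mostly of ribosome production, 14 were called higher and 0 lower, with medians of 1.09 and 0.97. Among those called, Srm (spermidine synthase, 1.74 and 1.64) and Nop56 (a nucleolar protein, 1.63 and 1.43) were highest, and Bop1 (0.91 and 0.83) and Rcl1 (1.15 and 0.86) lowest. Of 12 genes of the MYC network, 1 was called higher and 6 lower, with medians of -0.55 and -0.52, where 35.2% of all genes were called lower and the medians of all genes were -0.40 and -0.38. The one called higher was Mxd3 (3.78 and 4.26), and the highest of those called lower was Mlxip (-0.81 and -0.76). Mlxipl (-1.49 and -1.22) and Mxi1, which encodes a MAX partner that opposes MYC (-1.32 and -0.96), were the lowest. Of the remaining INK4 inhibitors, Cdkn2b was called lower (-1.17 and -0.81) and Cdkn2d was not called (0.43 and 0.90). The Seurat lists had 37 of 43 S genes and 52 of 54 G2/M genes called higher and 0 lower, where 8.76% of all genes were called higher. These lists share genes with the TA-mTEC markers that named the dividing clusters. Their count therefore follows in part from that naming and is not a separate result.

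The second comparison set the larger library against the smaller within each of the 10 clusters with at least 50 cells in both. A gene entered with at least 50 UMIs over both libraries of a cluster, and it was called by the same fold and range, here of a single ratio. Of 76 values of the 9 genes, 5 were called higher and 6 lower in the larger library, and 65 were not called.

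The calls were spread over clusters 0, 1, 3, 4, 7, 8 and 9. In the tuft-like cluster 8, 3 of 8 genes were called, where 3.82% of all genes counted were. These calls rested on few cells, as given below, and that of Ccnd2 was lost without the cell with the most UMIs in each library. In the enterocyte or microfold-like cluster 3, 2 of 8 were called (all genes, 5.86%), and in the keratinocyte-like cluster 9, 2 of 8 (all genes, 6.91%). There was 1 call each in cluster 0 (of 7, all genes 4.2%), cluster 1 (of 9, all genes 9.18%), cluster 4 (of 8, all genes 5.2%) and cluster 7 (of 6, all genes 3.73%). None was called in clusters 2 (of 7, all genes 1.97%), 5 (of 7, all genes 4.44%) and 6 (of 8, all genes 3.82%). In the dividing cluster 6, Ccnd1 and Myc had the largest ratios with limits that left out no change, 0.41 (0.25 to 0.56) and -0.35 (-0.63 to -0.07), and neither reached 1.5-fold.

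**Figure D4:**
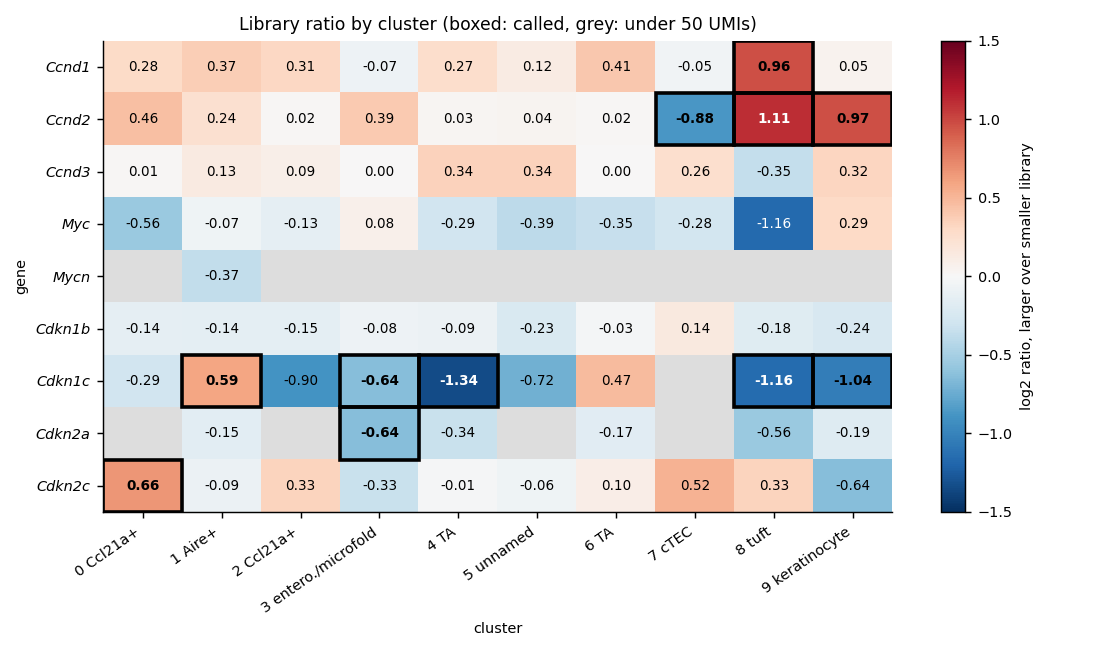
Log2 ratio of UMIs per 10000 in the larger over the smaller library (colour and number) for the 9 genes (rows) in the 10 clusters (columns), with called values boxed and genes of under 50 UMIs in grey. Cdkn1c has 5 boxed values, 4 below and 1 above 0, and Ccnd2 has 3, with cluster 7 below 0 and clusters 8 and 9 above it.

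Cdkn1c took 5 of the 11 calls. Its level was lower in the larger library in cluster 4, 0.885 (0.813 to 0.961) in the smaller against 0.35 (0.317 to 0.386) in the larger, with a log2 ratio of -1.34 (-1.60 to -1.08). This direction turned under other settings of the clustering, with ratios between 0.32 and 0.55 under a lower mitochondrial limit, with the 9 genes kept among the clustering features, or with the libraries merged. In the main clustering it was also lower in clusters 8 (-1.16, range -1.56 to -0.76), 9 (-1.04, range -1.33 to -0.75) and 3 (-0.64, range -0.77 to -0.51). In the Aire+ mTEC-like cluster 1 the ratio was of opposite sign, 0.59 (0.43 to 0.74), and it too turned, to -0.30, with the libraries merged without integration. In cluster 9 the ratio was -0.55 without cells of 2 or more thymocyte UMIs, short of 1.5-fold. The share of thinned cells with a Cdkn1c UMI was 20.1% (16.4 to 24.2) and 12.1% (9.34 to 15.3) in the smaller and larger library for cluster 3 and 12.3% (8.6 to 16.8) and 3.82% (2.44 to 5.68) for cluster 4, and the limits of the libraries did not overlap in either. The limits did overlap in cluster 8, with 17.1% (11.5 to 24.1) and 15.6% (10.2 to 22.5), and in cluster 9, with 24% (15.8 to 33.7) and 14.9% (8.39 to 23.7). In cluster 1 the share was 10.3% (7.76 to 13.2) and 8.66% (6.74 to 10.9), which goes against the direction of its summed UMIs, so no order is read from it.

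Cdkn1c UMIs were concentrated in few cells, and the Poisson limits of its sums do not include that spread. The 10% of cells with the most Cdkn1c UMIs held 92.6% and 95.1% of its UMIs in cluster 3 and 95.7% and 97.4% in cluster 1. For Ccnd2 in cluster 4 they held 30.4% and 27.6%. The highest count in a cell was 302 Cdkn1c UMIs, in cluster 3 of the smaller library, and the median cell of every cluster of at least 50 cells per library had 0. In all, 171 of 8303 cells had 10 or more, and they held 82.5% of the gene's UMIs. Of these, 66 stood in cluster 3, 55 in cluster 1, 20 in cluster 4, 12 in cluster 9 and 10 in cluster 8. The share of such cells was 4.46% (2.33 to 7.66) in the smaller library and 1.33% (0.575 to 2.6) in the larger for cluster 4. For cluster 1 it was 4.14% and 4.53%, for cluster 3 8.51% and 6.04%, for cluster 8 4.61% and 2.04% and for cluster 9 8.33% and 4.26%. The limits of the libraries overlapped in each of these clusters and in cluster 4. In the smaller library 1 cell held 138 of the 383 Cdkn1c UMIs of cluster 8 and 1 held 185 of the 622 of cluster 9. Without the cell with the most Cdkn1c UMIs in each library both clusters stayed called, at -0.81 and -1.24.

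**Figure D5:**
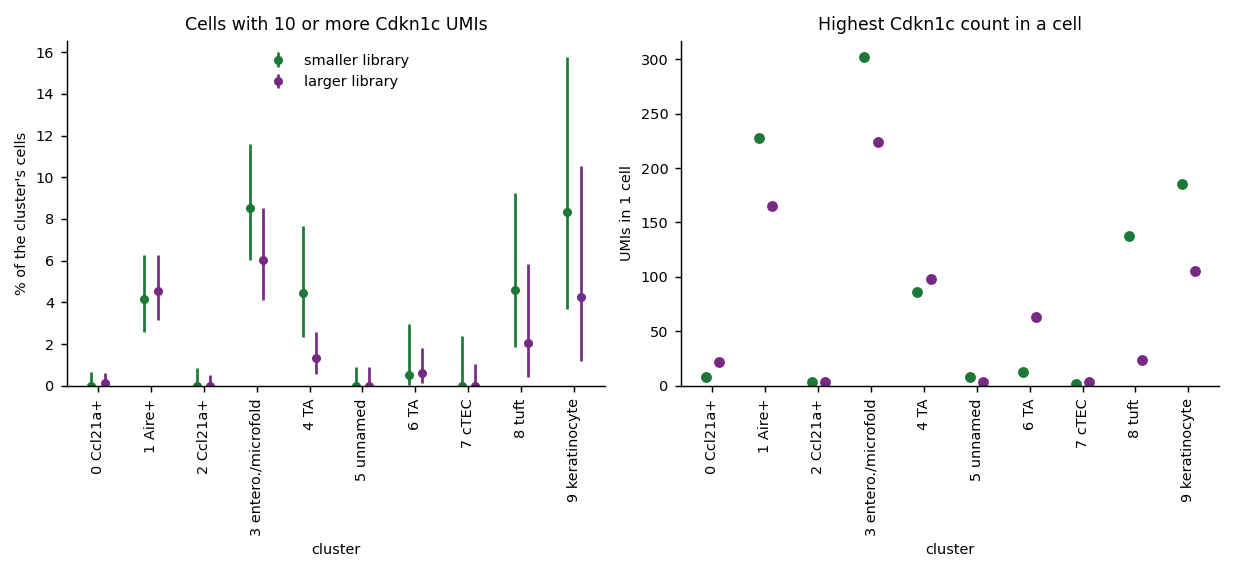
Left, percent of the cells of clusters 0 to 9 with 10 or more Cdkn1c UMIs in the smaller (green) and larger (purple) library, with exact binomial 95% limits; right, the highest Cdkn1c count in a cell. Cells of 10 or more are seen mostly in clusters 1, 3, 4, 8 and 9, and the highest count, 302, lies in cluster 3 of the smaller library.

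In cells with 10 or more Cdkn1c UMIs, 4.09% had 20 or more UMIs of the 97 cycle genes, against 12.3% of all other cells. The median was 7 such UMIs in both, and the cells compared were spread differently over the clusters. Among the other 8 genes, Ccnd2 had 2.01 (1.76 to 2.29) against 4.1 (4.02 to 4.19) in the remaining cells of cluster 1, and 1.91 (1.66 to 2.18) against 3.07 (2.98 to 3.17) in cluster 3. In cluster 4 it had 17.9 (16.7 to 19.1) against 13.9 (13.8 to 14.1). Ccnd3 had 0.561 (0.431 to 0.717) against 0.378 (0.352 to 0.405) in cluster 1. In cluster 3 it had 1.03 (0.848 to 1.23) against 0.585 (0.543 to 0.629). Cdkn2c had 0.48 (0.361 to 0.627) against 0.711 (0.675 to 0.747) in cluster 1. In cluster 3 it went the other way, with 0.57 (0.44 to 0.726) against 0.363 (0.33 to 0.398). In cluster 4 the limits of both genes overlapped. Ccnd1, Myc, Mycn and Cdkn1b had overlapping limits in each of these clusters. Cdkn2a, which shares its leading clusters with Cdkn1c, had 0.447 (0.333 to 0.588) against 0.463 (0.426 to 0.502) in cluster 3. It had 0.472 (0.353 to 0.617) against 0.358 (0.333 to 0.384) in cluster 1 and 0.237 (0.122 to 0.413) against 0.18 (0.161 to 0.201) in cluster 4, and the limits overlapped in each of the 3 clusters. These cells were chosen by their Cdkn1c count after it was seen, and the values are a description.

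Ccnd2 was called in 3 clusters. In the cTEC-like cluster 7 it was lower in the larger library, 0.974 (0.856 to 1.1) in the smaller against 0.53 (0.47 to 0.595) in the larger, with a log2 ratio of -0.88 (-1.23 to -0.53), and with the libraries merged without integration the ratio was -0.45, short of 1.5-fold. In the keratinocyte-like cluster 9 it was higher, with 0.97 (0.55 to 1.39), and in the tuft-like cluster 8 likewise, with 1.11 (0.59 to 1.64). A single tuft-like cell of the larger library held 72 of its 160 Ccnd2 UMIs. Without the cell with the most UMIs in each library the tuft-like ratio was 0.50 (-0.13 to 1.13) and was not called, while clusters 7 and 9 stayed called at -0.86 (-1.23 to -0.49) and 0.94 (0.50 to 1.38). The share of thinned tuft-like cells with a UMI was 10.5% (6.14 to 16.5) and 8.84% (4.79 to 14.6). In cluster 7 that share was 20.1% (14.1 to 27.3) and 12.7% (9.4 to 16.6), and in cluster 9 it was 25% (16.7 to 34.9) and 30.9% (21.7 to 41.2). The limits of the libraries overlapped in all 3 clusters. In the TA-mTEC-like clusters Ccnd2 differed little, 0.03 (-0.03 to 0.08) in cluster 4 and 0.02 (-0.04 to 0.08) in cluster 6.

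The remaining calls were single. Ccnd1 was higher in the larger library in cluster 8 (0.96, range 0.16 to 1.78, from 43 and 64 UMIs). There 5 cells held 20 of the 43 UMIs in the smaller library and 34 of the 64 in the larger. Without the cell with the most UMIs in each library it stayed called, at 0.91 (0.04 to 1.79). The share of thinned cells with a Ccnd1 UMI was 4.61% (1.87 to 9.26) and 7.48% (3.79 to 13), with overlapping limits. The Ccnd1 ratio was above 0 in 8 of 10 clusters, with 0.41 (0.25 to 0.56) in cluster 6 and 0.27 (0.13 to 0.40) in cluster 4. Cdkn2c was higher in cluster 0 (0.66, range 0.26 to 1.07), and this ratio fell short of 1.5-fold under several alternatives, to 0.08 at the lower clustering resolution. Cdkn2a was lower in cluster 3 (-0.64, range -0.97 to -0.32), where its share of thinned cells was 13.5% (10.4 to 17.1) and 13.1% (10.2 to 16.4), and with the libraries merged without integration the ratio was -0.41, short of 1.5-fold. Myc had ratios below 0 in 8 of 10 clusters and none was called, with -0.29 (-0.54 to -0.03) in cluster 4 and -1.16 (-2.47 to 0.06) in cluster 8. Cdkn1b had ratios below 0 in 9 of 10, from -0.24 to 0.14, and none was called. All clusters come from the same 2 libraries, so these counts of signs are not repeats. The median ratio of all genes lay between -0.04 and 0.04 in the 10 clusters. Ccnd3 had no call either, between -0.35 and 0.34. Mycn could be counted in cluster 1 alone, at -0.37 (-1.15 to 0.42).

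The related lists were compared over the same 10 clusters, where 1.97% to 9.18% of all genes were called. The calls of the MYC network were not fewer than that range. Of 157 values of the G1 machinery 1 was called higher, Fbxw7 in cluster 6 (0.60). Of 99 values of the MYC network 2 were called higher, Mlxipl in cluster 1 (0.83) and Mycl in cluster 3 (1.08), and 3 lower, Mxd1 in clusters 0 (-0.62) and 2 (-0.73) and Mlxipl in cluster 3 (-0.77). Of 187 values of the MYC-regulated genes 1 was called higher, Ldha in cluster 9 (0.66), and 1 lower, Rrp12 in cluster 1 (-0.91). None of 16 values of the other INK4 inhibitors was called. These genes were named after their values were seen.

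The genes with the most similar pattern were sought over 20 points, the 10 clusters in each library, by Pearson's r of log2(UMIs per 10000 + 0.05) among 12594 other genes with at least 500 UMIs. Points of a library share its depth and points of a cluster share its cells, so r is a description. Among the genes most like Cdkn1c were Zp2 (0.97) and Skint9 (0.97). Cdkn2a was most like Faah (0.97), Foxa1 (0.97) and Tgfa (0.96), where Foxa1 encodes a transcription factor and Tgfa a growth factor of epithelial cells. Among those most like Ccnd1 were Zfp451 (0.91) and Kremen2 (0.90). Ccnd2 was most like Tmem158 (0.90), Snhg17 (0.85) and Sgcd (0.85), and Ccnd3 like March2 (0.85), Borcs6 (0.82) and Trim26 (0.81). Myc was most like Sh3bp1 (0.85), Marcks (0.84) and Rabggtb (0.82), Cdkn1b like Eif5b (0.91), Scrn3 (0.90) and Akirin2 (0.90), and Cdkn2c like Ccdc115 (0.90), Lsm6 (0.90) and Ruvbl1 (0.90). Mycn had too few UMIs. Among the 9 genes the closest pair was Cdkn1c and Cdkn2a (r = 0.92), followed by Ccnd2 and Myc (0.78). Ccnd2 and Ccnd3 were the most opposed (-0.72).

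Positions are from GENCODE vM21 (GRCm38). Ccnd1 is at chr7:144929931-144939925, minus strand, Ccnd2 at chr6:127125162-127152193, minus strand, Ccnd3 at chr17:47505051-47599691, plus strand, Myc at chr15:61985391-61990374, plus strand, and Mycn at chr12:12936093-12941914, minus strand. Cdkn1b is at chr6:134920401-134925513, plus strand, Cdkn1c at chr7:143458339-143461050, minus strand, and Cdkn2c at chr4:109660876-109667189, minus strand. All are annotated as protein coding. No other annotated gene overlaps them on the same strand, and antisense genes overlap Ccnd1, Ccnd2, Ccnd3 and Cdkn1c.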

How the data were processed

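Single-cell RNA was measured in 2 libraries, 1 per condition. The authors deposited raw UMI counts per gene and barcode from Cell Ranger (5.0.1 in the matrix header, 5.1 in the submitters' processing notes) on mm10. No count was altered here. Cells were kept with 2000 to 7500 detected genes, counted over genes in at least 5 barcodes, and under 15% mitochondrial UMIs. No doublet caller was run, and the 5% of cells with the most UMIs were left out as an alternative.

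Clusters came from Seurat 5.3.0 in R 4.3.3 (3000 variable genes, 2000 anchor features, 20 components, resolution 0.5), as in the study's methods, but with the 9 genes and the listed pathway genes kept out of the features. Clusters were named from marker lists. Levels are summed counts per 10000 UMIs with exact Poisson 95% limits, and shares have exact binomial (Clopper-Pearson) limits. Both cover counting error only. A gene was called at 1.5-fold or more with a range that left out no change and at least 50 UMIs. With 1 library per condition no test was run. The 9 genes, the related lists and the markers were chosen with earlier results of these data known.

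All 9 genes were named, with the 3 genes most similar to each that had 500 or more UMIs, of which 2 are not reported here. In each list 2 called genes from either end of the order of ratios were named. Scripts used Python 3.11.15, scipy 1.17.1 and scanpy 1.11.5 and were tested on simulated counts. Alternatives changed the cell filters, features, resolution, integration, denominator and fold. Those that redefine the dividing or the other cells, and the one without the top cell, were added after the data were seen.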

Additional observations from a re-analysis of the deposited data

Results flagged for a closer look

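The ratio of the larger over the smaller library pointed in opposite directions in different clusters for Ccnd2 and Cdkn1c. The Ccnd2 log2 ratio was -0.88 in the cTEC-like cluster 7, 1.11 in the tuft-like cluster 8 and 0.97 in the keratinocyte-like cluster 9. The Cdkn1c log2 ratio was 0.59 in the Aire+ mTEC-like cluster 1, -0.64 in the enterocyte or microfold-like cluster 3, -1.34 in the TA-mTEC-like cluster 4, -1.16 in cluster 8 and -1.04 in cluster 9. Each of these values was called on its own. Without the cell with the most Ccnd2 UMIs in each library the Ccnd2 ratio of cluster 8 was 0.50 and not called, and with the libraries merged that of cluster 7 was -0.45, short of 1.5-fold. The Cdkn1c ratios of clusters 1 and 4 turned under other settings of the clustering, to as far as -0.30 and 0.55. The differences between clusters were not tested, since there was 1 library per condition.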

How the results depend on the processing

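No paired analysis was possible because each condition had 1 library. The 4 higher calls of dividing over other cells became 2 with under 10% mitochondrial UMIs and 2 with the libraries merged without integration, and Ccnd1 and Myc were the calls lost. The 2 lower calls became 1 with under 10% mitochondrial UMIs, with the 9 genes kept among the clustering features, at resolution 0.3, with the libraries merged, without cells of 2 or more thymocyte UMIs, at fold 2, with cluster 4 alone as dividing and without cluster 10 among the other cells. Between the libraries, the 5 higher calls became 3 with at least 1000 detected genes, 2 at resolution 0.3 and 1 at fold 2, and the 6 lower calls became 3 at fold 2. The Cdkn1c ratio of the libraries turned in cluster 4 to 0.55 with under 10% mitochondrial UMIs, 0.49 with the 9 genes kept among the features and 0.32 with the libraries merged. In cluster 1 it turned to -0.13 and -0.30 in the last pair of these. The cause was not tested. Clusters 4 and 9 had no counterpart at resolution 0.3, and cluster 9 had none with the libraries merged. Of the remaining library ratios 1122 moved by less than their counting limits and 45 by more. The ratios of dividing over other cells were less stable, with 197 moved by less than those limits and 109 by more. The Ccnd2 ratio ranged from 1.32 to 2.42 in the smaller library and from 1.11 to 2.27 in the larger. Phases scored without thinning moved 3 of 36 phase ratios beyond those limits, the S over G1 ratio of Ccnd2 in both libraries (to 0.06 and 0.21) and of Cdkn1c in the larger (to -3.29). Shares of cells with a UMI had the same order of the libraries with and without thinning in 71 of 90 values. Depth limited Mycn most, with 185 UMIs in all.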
